A study of Mus musculus with 8 samples.

Results

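Fatty acid oxidation and ketone body synthesis were followed through 33 genes, taken by symbol from a list of the enzymes, carriers and regulators of these pathways. All 33 were listed in both deposited tables, among 13774 genes in one and 11773 in the other. They comprise 4 genes of fatty acid activation and the carnitine shuttle, 14 mitochondrial oxidation enzymes, 9 peroxisomal genes, 2 ketone body enzymes and 4 regulators. Total RNA of the liver was sequenced from C57BL/6 mice fed a 42% high fat diet for 8 weeks, in 4 groups of 2 libraries. Mice labelled Ube3a TG homo, which overexpress the ubiquitin ligase gene Ube3a, stood in a table with 2 wild-type (WT) libraries. Mice labelled Ube3a het, which carry a knockout and a wild-type allele, stood in another table with 2 different WT libraries. Every group shared the strain and the diet. The labels give neither the promoter of the transgene, nor the sex or age of the mice, nor whether a group's libraries are separate animals, so p-values measure the spread between libraries, which may be technical.

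The liver burns fatty acids in mitochondria and, for very long and branched chains, in peroxisomes. Long chains are joined to coenzyme A, carried into mitochondria as carnitine esters, and shortened in repeated rounds of dehydrogenation, hydration, a second dehydrogenation and thiolysis, and part of the acetyl-CoA formed leaves the liver as ketone bodies. The nuclear receptor PPAR-alpha is the classical activator of these genes in mouse liver, and peroxisomal members are among its strongest known targets in rodents.

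Ube3a was read first as a check of the labels: 1187 and 1359 normalised read counts in WT against 5991 and 5938 in TG (log2 fold change 2.23, limma adjusted p = 0.0586), and 369 and 409 in WT against 301 and 279.5 in het (−0.42, limma adjusted p = 0.129). The labels do not say which exons the knockout allele lacks. TG table libraries held 44193275 to 47928229 recovered reads and het table libraries 13171145 to 17748088, and each member had at least 65 reads in every library. Of 16 hepatocyte markers 15 were listed in both tables, as for liver. The TG libraries stood apart from each other. In replicate 1 a list of 12 fatty acid synthesis genes had a mean 1.59 log2 units above the WT mean, and in replicate 2 it was 0.90 below (−0.90). The same list in het was 1.11 above in replicate 1 and 0.15 in replicate 2. TG results below are therefore given with and without each TG library.

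In WT liver the members spanned about 3 orders of magnitude in level per length, here RPKM (reads scaled by merged exon length in kilobases and by the listed reads of the library). Acaa1b, a peroxisomal thiolase that cleaves the shortened chain, was highest, at 1660.5 in WT of the TG table and 1319 in WT of the het table. The mitochondrial thiolase Acaa2 (729 and 800.3) and the sterol carrier and thiolase gene Scp2 (539 and 438) followed in both tables. The lowest levels belonged to regulators: Ppargc1a, a coactivator of oxidative genes, at 1.77 and 1.52, Pdk4, a kinase that shuts pyruvate dehydrogenase, at 5.84 and 1.48, and the uncoupling protein gene Ucp2 at 5.25 and 5.45. The 31-base stretches of several transcripts also occur in other genes, so their levels depend on how shared reads were counted. That held for 50.1% of stretches of Acaa1b (40% in its neighbour Acaa1a alone), 49.9% of Etfb, 33.4% of Scp2, 33.2% of Acadvl and 23.7% of Hadhb. For Cpt2, Acadl, Acads, Acaa2, Hsd17b4, Acat1, Creb3l3 and Pex11a it held for 0%. The merged length counts rarely used exons, which lowers the level per length of genes with long alternative ends.

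**Figure D1:**
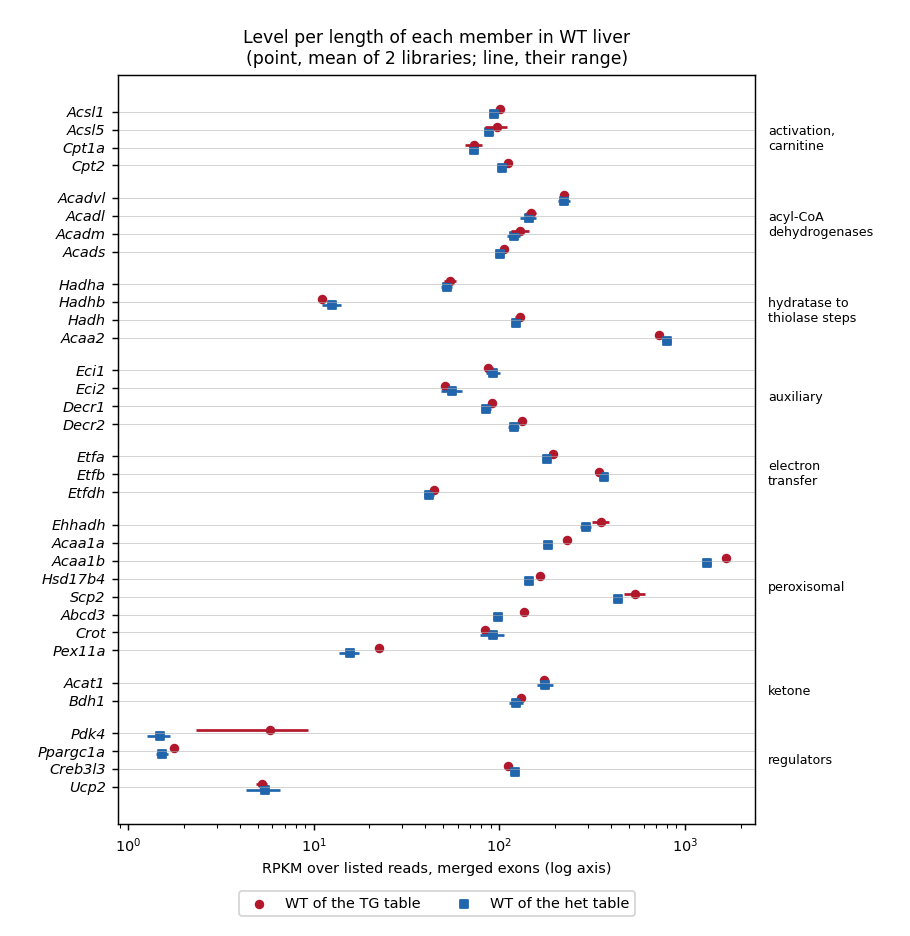
Level per length of the 33 members in WT liver, as RPKM over merged exons and listed reads on a log axis, with WT of the TG table in red and that of the het table in blue; points are means of 2 libraries and lines their range. Acaa1b is highest in both tables and Ppargc1a, Pdk4 and Ucp2 are lowest.

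With both TG libraries, 30 of 33 members lay below the WT level and 3 above, and the median log2 difference was −0.37 (1.29-fold lower) beside 0.00 over all 13774 genes. In bulk RNA a change in the number of cells of a type and a change in RNA per cell cannot be told apart; hepatocyte markers lay above WT in TG for 14 of 15 genes, with list means of 0.38 and 0.33. The limma test, fitted over all genes with Benjamini-Hochberg adjustment and a threshold of adjusted p under 0.05, called 0 members. It called 0% of all genes in either direction. At an unadjusted p under 0.05 there were 1 higher member (5.15% of all genes) and 5 lower members (3.96%), and 15.2% of members were thus on the lower side. edgeR on the recovered reads called 0 members and 0% of genes in either direction. DESeq2 called 1 member higher (0.711% of genes) and 0 lower (0.666%).

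The shift was carried by TG replicate 1, which lay above the WT mean in 2 of 33 members, where replicate 2 did so in 18. Over all 13774 genes, 6901 lay above the WT mean in replicate 1 and 7011 in replicate 2. Replicate 1 was below replicate 2 in 32 of 33 members, beside 51.5% of all genes. The members' median gap, replicate 2 minus replicate 1, was 0.76 log2 units, beside 0.01 over all genes. The median absolute gap was 0.84 in the members and 0.22 over all genes. Leaving out a TG library leaves 1, which limma then assumes to vary like the libraries of the other group, so these calls compare that library with WT and not the genotypes. Without replicate 2 the members' median was −0.80 and limma called 7 members lower and 0 higher, beside 0.537% and 0.523% of all genes: Cpt2, Eci1, Acaa1a, Acaa1b, Crot, Pex11a and Creb3l3. Without replicate 1 limma called 0 members and the median was 0.06, with 18 members above the WT level and 15 below. The members as a whole took 1.95% and 1.92% of reads in WT, 1.12% in TG replicate 1 and 1.72% in replicate 2.

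In het the members lay on the other side: 31 of 33 above the WT level and 2 below, and the median log2 difference was 0.26 (1.20-fold higher) beside 0.00 over all 11773 genes. Limma called 2 members higher, Pex11a and Acsl5, beside 0.892% of all genes, and 0 lower beside 0.544%. At an unadjusted p under 0.05, 13 members were higher and 0 lower. That is 39.4% of members on the higher side, against 8.58% of all genes higher and 6.11% lower. edgeR called the same 2 members (0.934% of genes higher, 0.612% lower), and DESeq2 called 7 higher (1.61%) and 0 lower (0.849%), adding Ehhadh, Acaa1b, Scp2, Abcd3 and Pdk4. Both het libraries lay above their WT mean in most members, 24 in replicate 1 and 30 in replicate 2, beside 5986 and 5869 of all 11773 genes. The members took 1.82% and 1.67% of reads in WT, and 2.07% and 2.23% in het.

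Non-overlap of the groups gave a similar picture. In TG both libraries lay below both WT libraries for 9 members and above for 1, or 27.3% and 3.03%, where 21.6% and 21.8% of all genes did so. The lower count was therefore near its background. In het both libraries lay above both WT libraries for 18 members and below for 1, or 54.5% and 3.03%, where 24.3% and 23.7% of all genes did so. Both patterns together, below in TG and above in het, were met by 7 members: Acsl1, Cpt2, Eci1, Ehhadh, Acaa1a, Acaa1b and Pex11a. They made up 21.2% of members beside 7.86% of the 11754 genes in both tables. The reverse pattern was met by 0 members and 7.23% of genes.

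**Figure D2:**
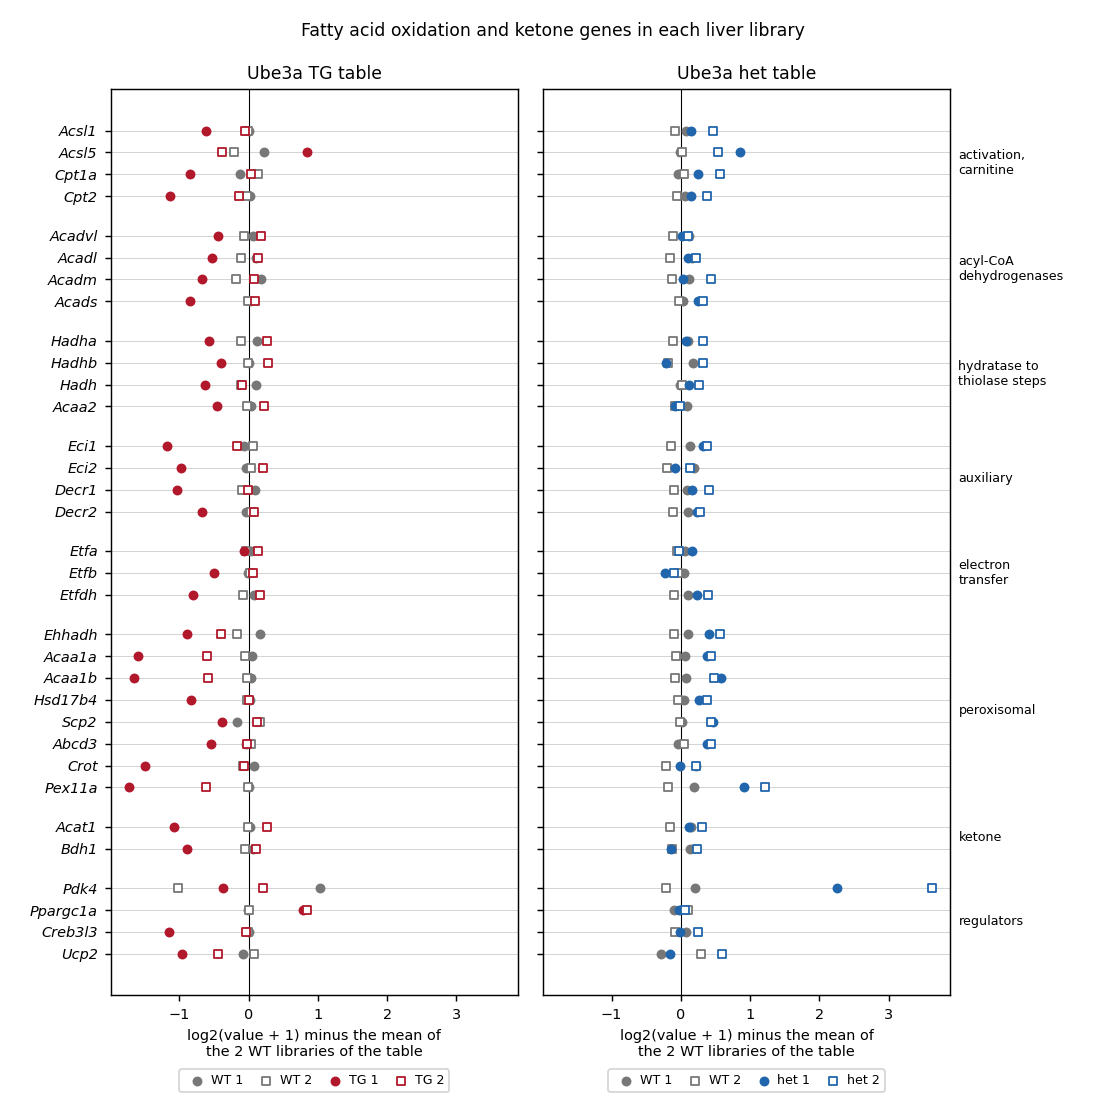
Each member in each library, as log2(value + 1) minus the mean of the 2 WT libraries of its table, ordered by role; grey marks WT, red TG and blue het, with circles for replicate 1 and squares for replicate 2. TG replicate 1 lies left of replicate 2 in 32 of 33 members, and most het marks lie right of 0, with Pdk4 and Pex11a farthest.

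All 4 genes of fatty acid activation and entry into mitochondria had both het libraries above both WT libraries, beside 24.3% of all genes. Limma called 1 of the 4 higher, beside 0.892% of all genes. Acsl5 (chromosome 19, 55251938 to 55297720, + strand, GRCm38), an acyl-CoA synthetase that primes long chains, stood at 6379 and 6524 normalised read counts in WT and 11710.4 and 9402 in het. Both het libraries were above both WT libraries, and Acsl5 rose with a log2 ratio of 0.70 (SE 0.13, 95% interval 0.40 to 1.00, limma adjusted p = 0.0442). The call ended without WT replicate 1 (limma adjusted p = 0.162), WT replicate 2 (0.102) or het replicate 1 (0.219), while the log2 fold change stayed between 0.54 and 0.86, with the lone library of a group assumed to vary like the other group. It also ended without the robust prior (limma adjusted p = 0.0629), with a stricter filter on low genes (0.0518) and in the fit of all 8 libraries (0.6). Of its stretches 7.31% also occur in other genes, most of them in Zdhhc6. In TG the same gene was at 24617 and 18232 in WT and 37959 and 16188 in TG, with a high replicate 1, the reverse of the other members of this role, and a log2 fold change of 0.23 (SE 0.45, adjusted p = 0.882). Acsl1, the main hepatic synthetase of this family, was at 15646 and 14033 in WT and 16474 and 20498 in het (0.31, SE 0.14), and at 47986 and 47446 in WT and 31183 and 46001 in TG (−0.33, SE 0.25). Groups did not overlap in either table, although TG replicate 2 was close to WT.

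Cpt1a encodes the carnitine transferase of the outer mitochondrial membrane, the gate of the pathway, and Cpt2 its partner on the inner membrane. Cpt1a was at 8209 and 8673 in WT and 10026 and 12544 in het, a log2 ratio of 0.41 (SE 0.14, 95% interval 0.10 to 0.72, adjusted p = 0.213). In the TG table it was at 22894 and 27458 in WT and 13868 and 25756 in TG, so that replicate 1 was low and replicate 2 lay between the WT libraries. Cpt2 was at 12258 and 11866 in WT and 5469 and 10982 in TG (−0.64, SE 0.35, adjusted p = 0.617), with both TG libraries under WT but mainly replicate 1. Its het fold change on the log2 scale was 0.26 (SE 0.12), from 3894 and 3574 in WT to 4122 and 4845 in het.

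The 14 mitochondrial enzymes had a median log2 fold change of −0.26 in TG, with 13 below and 1 above the WT level, and 0.17 in het, with 12 above and 2 below. None passed limma in either comparison, and without TG replicate 1 their TG median was 0.13. The acyl-CoA dehydrogenases open each round of oxidation and differ by chain length. Their log2 fold changes ran from −0.38 to −0.13 in TG and from 0.06 to 0.28 in het. The short-chain enzyme Acads had the smallest p of them in both: 10978 and 10760.1 in WT and 6049 and 11602 in TG (−0.38, SE 0.33, adjusted p = 0.733), and 3523 and 3389 in WT and 4108 and 4296 in het (0.28, SE 0.10, adjusted p = 0.25). TG replicate 2 was above both WT libraries, so the sign of the TG value rested on replicate 1, and without it the log2 fold change was 0.09. Of the 4 dehydrogenases, 1, Acads, had both het libraries above both WT libraries, beside 24.3% of all genes. Acadvl, the very-long-chain enzyme, overlaps Dvl2 on the other strand over 42.9% of its exon bases, and its reads cannot be assigned with certainty because the use of strand is not given.

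The trifunctional protein, encoded by Hadha and Hadhb, carries the later steps for long chains, and Hadh and Acaa2 those for shorter ones. Hadha was at 23204 and 19708 in WT and 14427 and 25770.5 in TG, and at 7402 and 6363 in WT and 7197 and 8598 in het. Hadhb was at 3319 and 3301 in WT and 2499.7 and 4019.6 in TG, and at 1405 and 1096 in WT and 1070.4 and 1556 in het. For both subunits TG replicate 1 was below and TG replicate 2 above the WT libraries, and in het the groups overlapped. Hadh had the smallest p of these genes, with log2 fold changes of −0.37 (SE 0.24, adjusted p = 0.655) in TG and 0.18 (SE 0.11, adjusted p = 0.501) in het. It stood at 31121 and 26899.7 in WT and 18634 and 26996 in TG, and at 9151 and 9351 in WT and 10009 and 11044 in het, where both het libraries were higher. Acaa2 was nearly level, at −0.11 (SE 0.28) in TG and −0.05 (SE 0.12) in het.

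Hadha and Hadhb lie head to head on chromosome 5, with 272 bases between their RefSeq starts. The 250 bases before the Hadhb start (GRCm38.p6, chr5:30155003-30155252, + strand) are shown because 228 of them, in capitals, are also among the 250 bases before the Hadha start, so that the stretches before the genes of both subunits overlap.
Hadhb: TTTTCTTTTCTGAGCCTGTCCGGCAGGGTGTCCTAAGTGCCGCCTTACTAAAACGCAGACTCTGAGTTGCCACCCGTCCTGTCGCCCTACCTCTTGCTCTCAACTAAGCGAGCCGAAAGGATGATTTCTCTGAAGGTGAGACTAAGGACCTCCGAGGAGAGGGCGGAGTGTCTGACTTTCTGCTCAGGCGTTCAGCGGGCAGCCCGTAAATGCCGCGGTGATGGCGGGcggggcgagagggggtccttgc
The level per length of Hadha in WT was 54.4 and that of Hadhb 11.1 in the TG table, a comparison limited by the stretches that Hadhb shares with other genes, 19.5% of them with Gm13910.

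Auxiliary enzymes handle double bonds of unsaturated chains. Eci1, a mitochondrial enoyl-CoA isomerase, was at 8039 and 8773 in WT and 3700.3 and 7459 in TG (−0.68, SE 0.35, 95% interval −1.60 to 0.25, adjusted p = 0.606). In het it was at 3698 and 3826 against 3244 and 2689 in WT (0.35, SE 0.12, 95% interval 0.08 to 0.62, adjusted p = 0.227). Neither pair of groups overlapped, and Eci1 had the largest absolute log2 fold change of the 14 mitochondrial enzymes in both comparisons. The reductase Decr1 had −0.52 (SE 0.36) in TG and 0.28 (SE 0.13) in het. Eci2, whose product is found in both mitochondria and peroxisomes, had −0.39 (SE 0.41) and 0.02 (SE 0.15). The electron transfer flavoprotein subunits Etfa and Etfb and their oxidoreductase Etfdh pass electrons on to the respiratory chain. Etfa was close to WT in both comparisons, at 0.03 (SE 0.16) in TG and 0.07 (SE 0.12) in het. Etfb was the sole member with both het libraries under both WT libraries, 5491 and 5980 against 6605 and 6226 (−0.16, SE 0.11, adjusted p = 0.54), and 47.3% of its stretches also occur in Gm45233. Its TG value was −0.22 (SE 0.23, adjusted p = 0.776), from 18051 and 18439 in WT to 12949.5 and 19068 in TG, and without TG replicate 1 it was 0.06. Etfdh, in contrast, was at 5569.9 and 6210.1 in het against 5043 and 4406 in WT (0.32, SE 0.12, adjusted p = 0.267), with no overlap.

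Peroxisomal genes had larger median differences from WT than mitochondrial enzymes in both genotypes when all libraries were used, and the contrast between these sets was not tested. All 9, Decr2 included, lay below the WT level in TG (median log2 fold change −0.64, range −1.17 to −0.13) and above it in het (median 0.41, range 0.10 to 1.06). Without TG replicate 1 the TG median was −0.07, with 7 below, beside 0.13 for the mitochondrial enzymes, so the order by size turned. Without replicate 2 it was −0.89. Pex11a (chromosome 7, 79735957 to 79743131, − strand), whose product promotes the elongation and division of peroxisomes, rose in het from 846 and 655 in WT to 1399.6 and 1733. The log2 ratio was 1.06 (SE 0.16, 95% interval 0.69 to 1.44, limma adjusted p = 0.0371), a 2.09-fold difference with both het libraries far above WT. The call ended without het replicate 1 (1.22, limma adjusted p = 0.0605) or het replicate 2 (0.91, limma adjusted p = 0.1) and in the fit of all 8 libraries (limma adjusted p = 0.429), and held when either WT library was left out. In TG it was at 978 and 2119.5 against 3270 and 3217 in WT, a log2 difference of −1.17 (SE 0.39, 95% interval −2.23 to −0.12, adjusted p = 0.535). Both TG libraries were below WT, at 30.2% and 65.3% of the WT mean.

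Acaa1a and Acaa1b are neighbouring peroxisomal thiolase genes on chromosome 9 that share many stretches, so their reads cannot be fully separated. Acaa1b (119148023 to 119157093, − strand) was at 150271 and 144035 in WT and 46519 and 98220.1 in TG (−1.12, SE 0.39, 95% interval −2.12 to −0.13, adjusted p = 0.534). Acaa1a (119339676 to 119350299, + strand) was at 47600 and 44627 in WT and 15206 and 30388 in TG (−1.10, SE 0.36, 95% interval −2.01 to −0.19, adjusted p = 0.534). Both genes were under WT in both TG libraries, at about the same fractions: 31.6% and 66.7% of the WT mean for Acaa1b, and 33.0% and 65.9% for Acaa1a. In het Acaa1b was at 58191 and 54138 against 41042 and 36852 in WT (0.53, SE 0.13, adjusted p = 0.11), and Acaa1a at 15864 and 16486 against 12702 and 11623 (0.41, SE 0.12, adjusted p = 0.148). Both het libraries lay above both WT libraries for each gene.

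The bifunctional enzyme Ehhadh (chromosome 16, 21761287 to 21787807, − strand), which hydrates and dehydrogenates chains in peroxisomes, was at 52984 and 42008 in WT and 25544 and 35783 in TG (−0.64, SE 0.25, adjusted p = 0.544). In het it was at 17322 and 19471 against 14106 and 12212 (0.48, SE 0.13, adjusted p = 0.128). As for the thiolases, groups did not overlap in either table. Scp2 differed from them: it was at 31579 and 30927 in het against 23117 and 22685 in WT (0.45, SE 0.12, adjusted p = 0.126), but in TG at 64109 and 91666 against 74566 and 94469 (−0.13, SE 0.27), where the groups overlapped. The importer of fatty acyl-CoA into peroxisomes, Abcd3, had −0.29 (SE 0.24) in TG and 0.41 (SE 0.11) in het, and the multifunctional enzyme Hsd17b4 −0.42 (SE 0.30) and 0.33 (SE 0.11). Crot, which makes carnitine esters of shortened chains for export, was carried by a single library: 21912 and 19649 in WT, 7384 and 19835 in TG. Its log2 fold change in het was 0.10 (SE 0.16). Decr2, the peroxisomal dienoyl-CoA reductase, had −0.30 (SE 0.28) and 0.26 (SE 0.12).

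The 250 bases before the start of the members that limma called in het and of both thiolase genes are given from RefSeq (GRCm38.p6). Capitals mark CCAAT and GGGCGG in either orientation (ATTGG and CCGCCC on the other strand), the CCAAT box and the GC box, and AGGTCA, the core letters of nuclear receptor sites. Acaa1a covers chr9:119341044-119341293 (+ strand), Acaa1b chr9:119157094-119157343 (− strand), Pex11a chr7:79743132-79743381 (− strand) and Acsl5 chr19:55253119-55253368 (+ strand).
Acaa1a: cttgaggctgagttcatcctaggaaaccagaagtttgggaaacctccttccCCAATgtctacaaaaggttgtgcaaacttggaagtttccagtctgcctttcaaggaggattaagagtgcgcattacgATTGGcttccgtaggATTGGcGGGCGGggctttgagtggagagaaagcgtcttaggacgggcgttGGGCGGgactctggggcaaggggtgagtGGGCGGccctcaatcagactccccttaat
Acaa1b: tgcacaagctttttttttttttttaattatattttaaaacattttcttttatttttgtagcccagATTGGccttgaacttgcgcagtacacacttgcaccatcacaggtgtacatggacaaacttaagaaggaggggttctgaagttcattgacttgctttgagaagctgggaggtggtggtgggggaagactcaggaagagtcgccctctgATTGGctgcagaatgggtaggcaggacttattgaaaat
Pex11a: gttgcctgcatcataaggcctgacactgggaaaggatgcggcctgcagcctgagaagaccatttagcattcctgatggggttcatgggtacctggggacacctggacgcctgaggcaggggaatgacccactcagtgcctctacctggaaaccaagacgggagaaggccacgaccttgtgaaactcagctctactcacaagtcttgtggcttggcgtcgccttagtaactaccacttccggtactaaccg
Acsl5: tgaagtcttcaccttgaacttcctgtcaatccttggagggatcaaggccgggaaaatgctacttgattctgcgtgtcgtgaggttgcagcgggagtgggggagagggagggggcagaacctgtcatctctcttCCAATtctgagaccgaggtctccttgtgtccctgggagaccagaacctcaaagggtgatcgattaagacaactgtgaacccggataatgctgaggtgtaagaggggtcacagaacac
The Acaa1a stretch holds 3 CCAAT boxes and 3 GC boxes, that of Acaa1b 2 CCAAT boxes and 0 GC boxes, that of Acsl5 1 CCAAT box, and that of Pex11a 0 of either, and AGGTCA was in 0 of these 4. The thiolase paralogs, with like fold changes in these libraries, thus differ in these letters before the RefSeq starts used. The Acaa1a and Acsl5 stretches lie inside the gene spans given above, so what they hold depends on the start chosen. Over all members, RefSeq gave 33 windows for 29 genes, and none was used for Acaa2, Decr1, Hsd17b4 and Acat1. In the 250 bases before the start, CCAAT was found in 14 of the 33 member windows, beside 33.9% of 32851 mouse windows. GGGCGG was in 16 of the 33 (32.7% of mouse windows) and AGGTCA in 5 (14.0%), those of Acadm, Acadvl, Cpt1a, Creb3l3 and Scp2. A direct repeat of AGGTCA with 1 base between, the form of a PPAR site, was searched on both strands from 250 bases before to 50 after the start. It was in 0 of 33 member windows and 0.0396% of all windows, and with 1 mismatch in 0 and 0.554%. With so rare a repeat, 33 windows would seldom hold any, so the search cannot tell whether the members lack PPAR sites. Bases outside the windows and forms with more mismatches were not searched.

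The ketone body enzymes measured here were Acat1, a mitochondrial thiolase that condenses acetyl-CoA, and Bdh1, which interconverts the main ketone bodies. Acat1 was at 29810 and 29159 in WT and 13929 and 35401 in TG (−0.41, SE 0.47, adjusted p = 0.793). Bdh1 was at 23966 and 22196 in WT and 12490.5 and 24876 in TG (−0.39, SE 0.35, adjusted p = 0.739). In both genes TG replicate 1 was far below WT and replicate 2 above both WT libraries, so the groups overlapped. In het Acat1 was at 10838 and 12379 against 11111 and 8981 (0.21, SE 0.14, adjusted p = 0.524) and Bdh1 at 6552 and 8477 against 7924 and 6590.2 (0.04, SE 0.15, adjusted p = 0.926). The het groups overlapped as well.

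The 4 regulators differed from each other. Ppargc1a (chromosome 5, 51454250 to 51567726, − strand) was the member with the smallest p in TG and was higher there, at 905 and 947 against 525 and 529 in WT, with a log2 ratio of 0.81 (SE 0.12, 95% interval 0.50 to 1.12). The adjusted p was 0.267 by limma and 0.00203 by DESeq2. It was the sole member with both TG libraries above both WT libraries, and TG replicates 1 and 2 were close to each other, unlike in most members. In het it was at 147 and 156 against 140.4 and 161 (0.01, SE 0.15, adjusted p = 0.977). Pdk4 (chromosome 6, 5483351 to 5496309, − strand), whose kinase spares glucose while fat is burned, was at 374 and 965 in het against 89.7 and 66.6 in WT. Both het libraries were far above WT but also far from each other. The log2 ratio was 2.94 (SE 0.59, 95% interval 1.07 to 4.82), with adjusted p = 0.217 by limma and 0.000914 by DESeq2. Limma called it without the robust prior (adjusted p = 0.0321), where Acsl5 was not called, and on leaving out het replicate 1 (0.00133) or 2 (0.00718), but not on leaving out WT replicate 1 (0.547) or 2 (0.505). In the TG table the WT libraries were the farthest apart, 1501 and 363, with TG at 569 and 852, and the log2 fold change was −0.08 (SE 0.81). Ucp2, abundant in macrophages, was at 849.8 and 1213 in TG, where WT had 1568 and 1745 (−0.70, SE 0.20, 95% interval −1.21 to −0.20, adjusted p = 0.518), while in het the groups overlapped (0.22, SE 0.37). Creb3l3, a liver transcription factor of fasting, was at 6879 and 14828 in TG, where WT had 15348 and 15221 (−0.60, SE 0.39), a gap made by replicate 1, and had 0.11 (SE 0.13) in het.

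**Figure D3:**
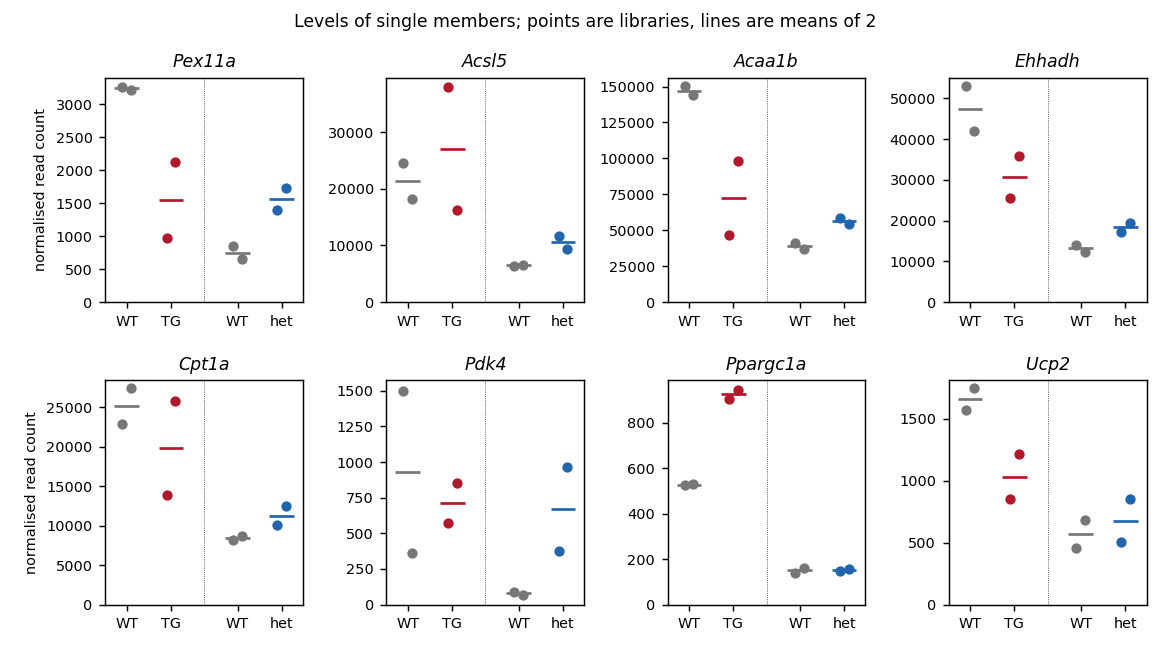
Normalised read counts of 8 members in every library, on axes from 0; points are libraries, lines means of 2, and the dotted line parts the TG table (left) from the het table (right), which were normalised separately and are not comparable in level. Pex11a, Acaa1b and Ehhadh are below WT in both TG libraries and above WT in both het libraries, Ppargc1a is higher in both TG libraries, and the WT libraries of Pdk4 in the TG table lie far apart.

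The TG and het effects were compared directly in a joint fit of 8 libraries over 11754 genes, as the TG effect minus the het effect, each against its own WT pair. Of 33 members, 32 had a negative difference and 1 a positive one, with a median of −0.64 log2 units beside 0.01 over all genes. Limma called 0 members, beside 0.204% of genes higher and 0.230% lower, and edgeR called 0 beside 0.162% and 0.213%. At an unadjusted p under 0.05, 1 member was higher (8.42% of genes) and 7 were lower (8.28%), 21.2% of members. DESeq2 called 0 higher (1.32%) and 4 lower (1.84%): Ehhadh, Acaa1a, Acaa1b and Pex11a, all peroxisomal. For Pex11a the difference was −2.23 (SE 0.50, 95% interval −3.44 to −1.03, limma adjusted p = 0.133). That of Pdk4 was larger and less precise, −3.03 (SE 1.14, 95% interval −5.93 to −0.12, adjusted p = 0.284).

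Here too a lone TG library is assumed to vary like the libraries of the other groups, so the calls rest on that library. Without TG replicate 1, limma called Pex11a (−1.68, adjusted p = 0.0233) and Acaa1a (−1.01, adjusted p = 0.0453) lower and 0 members higher, beside 0.562% and 0.604% of genes. The members' median difference was then −0.19. Without TG replicate 2 it called 18 members lower and 0 higher, beside 3.26% and 2.21% of genes, and the median was −0.997. The pathways had unlike medians here. Without TG replicate 1 the 14 mitochondrial enzymes had a median difference of 0.01 (7 above and 7 below), and the 9 peroxisomal genes one of −0.43 with all 9 below. The TG effect of these 9 genes without replicate 1 had a median of −0.07, with 7 below WT, and their het effect one of 0.41. The ketone enzymes had medians of −0.53 with all libraries and 0.06 without TG replicate 1. The differences of Ehhadh and Acaa1b were −1.13 (SE 0.29, adjusted p = 0.147) and −1.65 (SE 0.44, adjusted p = 0.159), and that of Ppargc1a, the member with the smallest p, was 0.80 (SE 0.17, adjusted p = 0.104). Of the remaining roles, the members with the smallest p were Acsl1 (−0.64, SE 0.30), Acads (−0.66, SE 0.38), Hadh (−0.55, SE 0.27), Eci1 (−1.03, SE 0.42), Etfdh (−0.64, SE 0.40) and Acat1 (−0.62, SE 0.56), with limma adjusted p from 0.289 to 0.607.

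**Figure D4:**
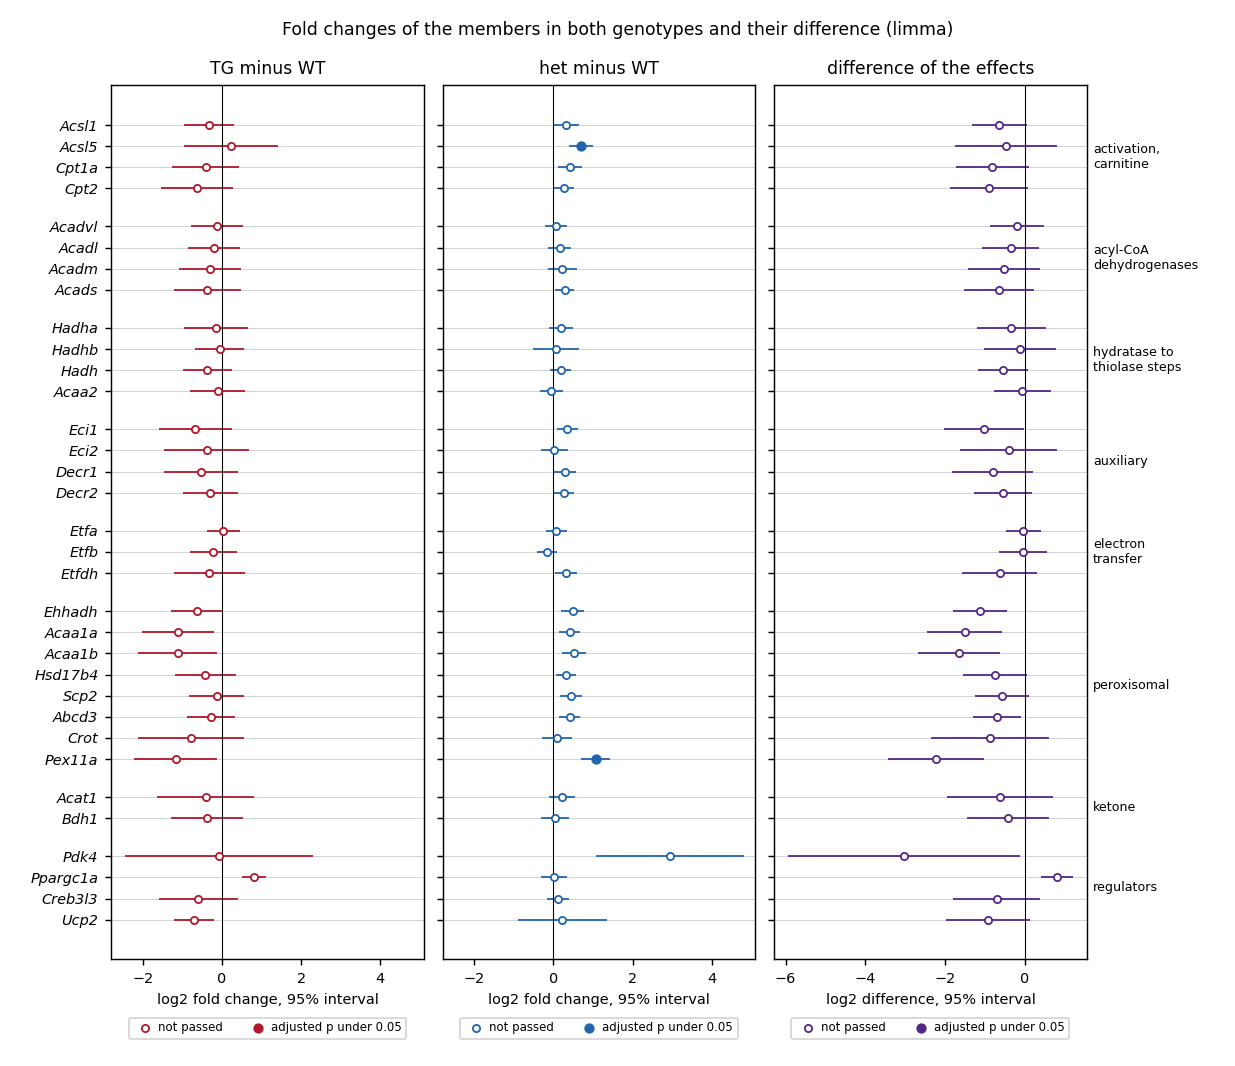
Log2 fold changes of each member with 95% intervals from limma, for TG minus WT, het minus WT and the difference of these effects, ordered by role; filled points have adjusted p under 0.05. Acsl5 and Pex11a in het are the filled points, and 32 of 33 differences lie left of 0.

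Other genes of these pathways were read from lists. Of 32 further oxidation and ketone enzymes, 24 lay below WT in TG (median −0.22), where 0 passed in either direction. In het 26 lay above WT (median 0.17), and 1 passed, higher, beside 0.892% of all genes. The gene that passed was Slc22a5, the plasma membrane carnitine carrier, which rose from 771 and 867 in WT to 1179 and 1316 in het (0.61, SE 0.11, limma adjusted p = 0.0384). In TG it stood at 1002 and 2815 against 3227 and 2694, with a low replicate 1 alone.

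Of 15 peroxisome assembly genes, 14 lay below WT in TG (median −0.26, 0 passed) and 10 above WT in het (median 0.13, 1 passed, higher, beside 0.892% of all genes). In TG the smallest p belonged to Pex11g (−0.43, SE 0.13, adjusted p = 0.526) and Pex19 (−0.41, SE 0.16, adjusted p = 0.547), and for the difference Pex16 had −0.83 (SE 0.21, adjusted p = 0.142). The TG libraries were nearer to each other in this list, with list means 0.29 and 0.16 log2 units below WT (−0.29 and −0.16). Of 15 genes listed for the transcriptional control of oxidation, the hormone gene Fgf21 included, 9 lay above WT in TG and 8 in het. Their medians were 0.10 and 0.04, and 0 passed in either comparison. Ppara, which encodes the receptor PPAR-alpha and is named here for that role, was at 18216 and 23336 in TG, where WT had 23903 and 21430.3, with overlap. In het it was at 9216 and 9557 against 6963 and 7396, without overlap (0.39, SE 0.11, adjusted p = 0.148). Sirt1, a deacetylase that acts on the Ppargc1a product, had the smallest p of these 15 genes in TG, 738 and 721 against 502 and 569 (0.45, SE 0.14, adjusted p = 0.525), followed by the phosphatase and coactivator gene Lpin1 (1.01, SE 0.37). In het it was Foxo1, a transcription factor held back by insulin (0.44, SE 0.11, adjusted p = 0.114), followed by Ppara. For the difference it was Fgf21, a hormone the liver secretes on fasting (−2.55, SE 0.99, adjusted p = 0.272), followed by Ppara (−0.52, SE 0.22).

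Endothelial and macrophage markers lay mostly on the same side of WT as the members in both tables, and the part of cell composition in the members' differences was not tested. Of 16 endothelial markers, 15 lay below WT in TG and all 16 above WT in het. Lyve1 (0.92) and Gpr182 (0.67) passed limma in het, beside 0.892% of all genes called higher. The summed level of the 16 markers was 28262 to 28955 in WT against 24197 to 24255 in TG, and 7039 to 7474 in WT against 8487 to 8568 in het. Kupffer cell and macrophage markers lay below WT in TG for 19 of 20 genes (summed level 40211 to 42487 in WT, 27159 to 35467 in TG) and above WT in het for 15 of 18 (9579 to 13571 in WT, 11504 to 15554 in het). Hepatocyte markers lay above WT in TG for 14 of 15 genes, and in het for 6 of 15. Periportal hepatocyte markers, a zone known for fatty acid oxidation, lay below WT in TG for 7 of 7 genes and above WT in het for 5 of 7. Pericentral markers lay above WT for 4 of 8 genes in TG and 1 of 8 in het, and stellate cell markers for 7 of 15 and 5 of 14. Of 9 cholangiocyte and 12 lymphocyte markers, 8 and 10 were listed in the TG table (3 and 1 above WT), and 2 and 4 in the het table (1 and 1 above WT). The TG libraries were alike in the endothelial and hepatocyte lists, with mean log2 differences from WT of −0.23 and −0.29, and 0.38 and 0.33, whereas the members' means were −0.74 and −0.00. Replicate 1 was the lower library, as in the members, in the macrophage list (−0.53 and −0.10) and the pericentral list (−0.20 and 0.34). It was the higher library in the stellate list (0.22 and −0.29) and the lymphocyte list (−0.03 and −0.70). In the periportal list the TG means were close, at −0.48 and −0.44, but the summed levels were not. The summed level was 131115 in TG replicate 1 and 298724 in replicate 2, where WT had 233014 and 273143.

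**Figure D5:**
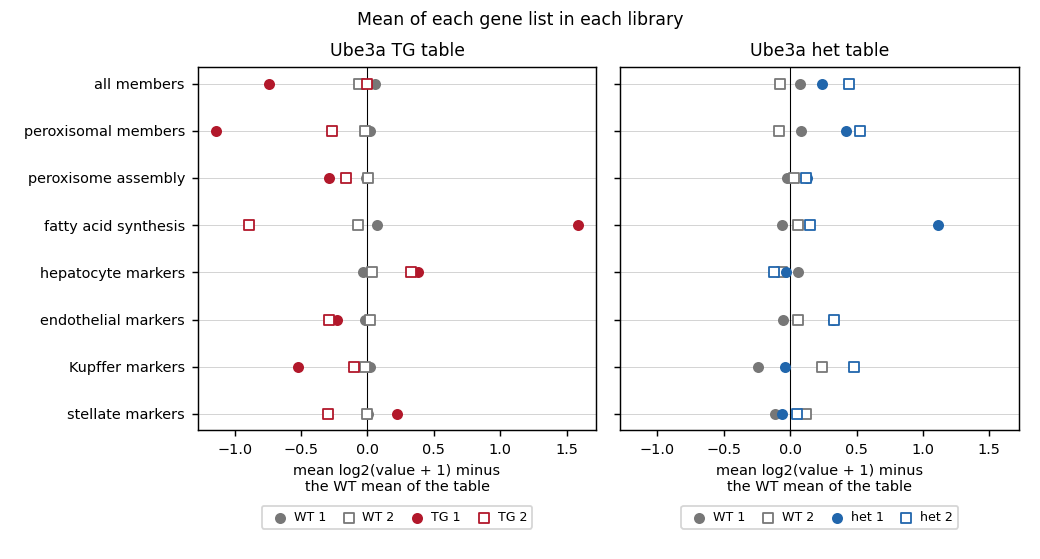
Mean log2(value + 1) of each gene list in each library, minus the WT mean of its table; grey marks WT, red TG and blue het, with circles for replicate 1 and squares for replicate 2. The members are 0.74 log2 units below WT in TG replicate 1 (−0.74) and near 0 in replicate 2, while fatty acid synthesis genes lie 1.59 above WT in replicate 1 and 0.90 below in replicate 2 (−0.90).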

How the data were processed

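Liver RNA was sequenced from 8 libraries in 4 groups of 2. The authors deposited 2 tables of gene-level signal, read counts divided by 1 factor per library; reads were assigned with Subread 1.5.2 and featureCounts and handled with DESeq2 on mm10 (GRCm38), per the submitters' processing notes, and the use of strand is not given in the sources used here. Whole reads were recovered from the deposited signal, within 0.001 of a read for every value. The lowest mean value listed was 11.2 in the TG table and 17.8 in the het table, so lower genes were not tested. Levels were compared within a table.

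The main test was limma 3.58.1 (R 4.3.3) on log2(value + 1), with a trended and robust prior, fitted over all genes of a table, or over 11754 shared genes for the difference of effects, with Benjamini-Hochberg adjustment at 0.05. Fold changes are on the log2(value + 1) scale. edgeR 4.0.16 (quasi-likelihood) and DESeq2 1.42.0 were run on the recovered reads. All tests were two-sided. The limma fit of each table was also run on simulated reads, whereas edgeR, DESeq2 and the difference of effects were not. The simulation gave every gene the same spread between libraries and did not model the gap between the TG libraries. Alternatives were another pseudocount, filters, scalings, tools, a replicate block, a fit of all 8 libraries, and leaving out each library.

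The members and gene lists were chosen with earlier results of these data known. Full values are given for members that passed in a comparison, or else the 4 of smallest p, and for the 1 of smallest p in each role; of the other pathway lists, for genes that passed or else the 2 of smallest p. Acsl1, Cpt1a, Hadha, Hadhb, Crot, Creb3l3 and Ppara were described for their role, and some genes of these lists, including 1 that passed, are not reported here. Of the listed names, 20 in the TG table and 18 in the het table were turned into dates by a spreadsheet, and none is a member. Sequences are from RefSeq (GRCm38.p6) and gene positions from GENCODE (GRCm38).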

Additional observations from a re-analysis of the deposited data

Results flagged for a closer look

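For 2 of the genes named, the TG effect minus the het effect passed limma over all genes. Ube3a differed by 2.65 log2 units (adjusted p = 0.00157), with both TG libraries above and both het libraries below their WT pair, as the labels of the groups say. Gpr182, an endothelial marker, differed by −1.07 (adjusted p = 0.0457). It was lower than WT in TG and higher than WT in het. Groups of 2 libraries are too small to flag a single library.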

How the results depend on the processing

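The direction of the members' median held under every alternative that kept all libraries, and the scalings shifted the median of all genes by at most −0.03 log2 units. Counts of calls depended on the tool and on single libraries. In TG, limma called 0 genes, DESeq2 186 and the fit of all 8 libraries 25, and leaving out 1 library gave 0 to 146; for the members DESeq2 gave 1 and leaving out 1 library 0 to 7, and the members' median ranged from −0.80 to 0.064. Without a TG library, Acads ranged from −0.85 to 0.094, Etfb from −0.49 to 0.064 and Bdh1 from −0.88 to 0.11, each turning positive without TG replicate 1. In het, 169 genes were called, 93 without the robust prior, 289 by DESeq2, 0 in the fit of all 8 libraries and 61 to 173 on leaving out 1 library. Of the members, 1 was called with the stricter filter on low genes, 7 by DESeq2, 0 in the fit of all 8 libraries, and 1 to 2 on leaving out 1 library. For the difference of effects, 51 genes were called, 371 by DESeq2 and 5 to 643 on leaving out 1 library; for the members DESeq2 gave 4 and leaving out 1 library 0 to 18, with a median of −0.997 to −0.19, and Acat1 ranged from −1.30 to 0.050. The cause of these changes was not tested.

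With the replicate number as a block, 0 members were called in het (Pex11a limma adjusted p = 0.0773, Acsl5 0.0604) and 138 genes. Libraries of the same number share only that number: their deviations from the group means correlated at 0.11 in the TG table and −0.04 in the het table. The het table was sequenced less deeply than the TG table, and 2 libraries a group limit the precision of every value.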
